A study of Strongylocentrotus purpuratus with 4 samples.

Results

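The gut program described here is a set of 100 genes, out of 32262 in the files, chosen by their levels in the gut cells of gastrulae injected with a control morpholino antisense oligonucleotide (MO). Gut cells were defined as cells with at least 3 UMIs of Endo16 (a UMI is a barcode that counts 1 captured transcript molecule), among cells with 400 to 2500 detected genes. For each gene the UMIs were summed over gut cells and over all other cells, divided by the UMI total of the group to give CPM, and compared as the ratio of (CPM + 1). Of 2679 genes with at least 50 UMIs in the gut cells, the 100 with the highest ratio were taken, leaving out Endo16, GATAe and blimp1/krox. The choice therefore used the contrast of gut cells over other cells with the control MO, and all values of that contrast are given as a description.

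The data are 4 droplet libraries of Strongylocentrotus purpuratus, 1 per condition. The gcm MO library came from whole gastrulae at 48 hours post fertilization (hpf) injected with 0.5 mM of a translation-blocking MO against gcm, a transcription factor of pigment cells. The control MO library came from whole gastrulae at 48 hpf injected with 0.5 mM of an MO against a sea star gene. The study's methods give this MO a sequence of its own, while its reagent list prints the sequence of the gcm MO for both. For both, embryos with the expected phenotype were pooled, and gcm morphants were picked for a straight gut and no pigment. The uninjected libraries came from ectoderm-enriched cells at 72 hpf (larvae) and 48 hpf (gastrulae), so the gut cells in them are those left after enrichment for another layer. All eggs were fertilized in the presence of 3-amino-triazole. The MO libraries shared a sequencing lane and the uninjected libraries had a lane each, so stage, lane and library cannot be told apart.

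The sea urchin gut forms when the vegetal plate invaginates as the archenteron, which then divides into foregut, midgut and hindgut. GATAe, a GATA-type zinc finger factor, and blimp1/krox, a zinc finger repressor, are regulators of the endoderm network, and FoxA is a forkhead factor of endoderm and of the stomodeum. Endo16 encodes a secreted, acidic protein of the vegetal plate that comes to mark the midgut. All 100 members carry LOC identifiers only, with no gene description in the sources used here, so none is given a function below. In the gene table of the later assembly Spur_5.0, 85 of the 100 were found, 84 as protein coding and 1, LOC754064, as lncRNA.

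After the filter, 67 of 539 cells of the gcm MO library were gut cells, against 278 of 3323 with the control MO. The uninjected libraries held 18 gut cells of 6666 at 72 hpf, against 121 of 5170 at 48 hpf. Deposited UMIs per library ranged from 2298196 (gcm MO) to 17172515 (48 hpf), and gut cells held 245620 UMIs with the gcm MO, 1073300 with the control MO, 59310 at 72 hpf and 603185 at 48 hpf. One UMI in gut cells was thus worth 4.07, 0.932, 16.9 and 1.66 CPM in that order, and a single cell held 18.6% of the gut UMIs at 72 hpf. The targeted gene, gcm, had 10 UMIs (6.34 CPM) in cells outside the gut with the gcm MO and 244 UMIs (29.6 CPM) with the control MO, although an MO of this kind acts on translation, so that the mRNA is no direct check of it, and 5 and 185 cells passed as pigment cells. Between 1 and 16 cell barcodes were shared by any pair of libraries, none of them in gut cells of both. With 1 library per condition no test across conditions was possible, and all intervals below (exact Poisson, Clopper-Pearson or exact conditional binomial, 95%) cover counting error only.

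The gut label was checked on genes that the choice of cells did not use. GATAe was at 594 CPM in gut cells and 20.3 CPM in other cells with the gcm MO, at 553 and 28.6 CPM with the control MO, at 337 and 1.72 CPM at 72 hpf, and at 638 and 8.80 CPM at 48 hpf. blimp1/krox was at 920, 793, 539 and 1011 CPM in the gut cells of the same libraries and at 2.34 to 23.5 CPM in other cells. FoxA was 4.84- to 25.2-fold higher in gut cells than in other cells. Of 20 symbols of gut regulators listed, 8 were in the files, and FoxA, GATAe and blimp1/krox were at least 2-fold higher in gut cells in all 4 libraries. The ParaHox homeobox gene lox was at 32.6 CPM (8 UMIs) with the gcm MO, 13.98 CPM (15 UMIs) with the control MO, 0 UMIs at 72 hpf and 123 CPM (74 UMIs) at 48 hpf in gut cells. In other cells lox was at 0.677 CPM or less in the 3 libraries at 48 hpf and at 3.16 CPM (46 UMIs) at 72 hpf. Its 72 hpf ratio of gut over other cells could be up to 20.5. NK2.1 and hnf6 mark ectodermal territories. hnf6 was at least 2-fold lower in gut cells in every library, and NK2.1 in the 3 libraries at 48 hpf, while at 72 hpf NK2.1 had 0 UMIs in gut cells against 69.2 CPM in other cells, which allows a ratio of up to 0.900. Of the others, otx was at 374 to 550 CPM in gut cells and 444 to 779 CPM in other cells. The gene eve had 12 UMIs or fewer in the gut cells of any library. In uninjected embryos at 48 hpf eve was lower in gut cells, at 13.3 CPM against 67.5 CPM in other cells (0.197-fold, 0.0846 to 0.389).

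Markers of other cell types were present in some gut cells. With the gcm MO, 4 of the 67 gut cells also passed the threshold for aboral ectoderm (at least 10 UMIs of ARS) and 3 that for vasa (at least 5 UMIs). With the control MO, 10 of the 278 passed the aboral threshold, 4 that for pigment cells and 1 that for skeletogenic cells, and at 48 hpf 10 of the 121 passed the aboral and 4 the pigment threshold. None of the 18 gut cells at 72 hpf passed any. ARS as a whole was lower in gut cells than in other cells, at 2064 against 8904 CPM with the gcm MO and 818 against 10250 CPM with the control MO.

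In the control MO library that chose them, the members had rule ratios from 142 to 13.9, and 15.3% of the 14123 genes with at least 10 UMIs were at least 2-fold higher in gut cells. The highest were LOC756072 at 142, LOC583122 at 135 and LOC593118 at 133. They were followed by LOC575621, LOC100890938, LOC587093, LOC589852, LOC754064, LOC575434 and LOC585065 (85.1 to 127), and then by LOC584897, LOC105438660, LOC754762, LOC100889375 and LOC578952 (71.9 to 83.1). Just inside the threshold were LOC579087 at 15.2, LOC105440589 at 15.0, LOC577275 at 14.9, LOC100889865 at 14.1 and LOC100887984 at 13.9. Just outside were LOC763157 and LOC100889993, each at 13.7 with 58 UMIs in gut cells and 25 in other cells, LOC577710 at 13.3 (267 gut UMIs), LOC575445 at 13.3 (625 gut UMIs) and LOC575923 at 13.2. The step across the threshold was small, at 13.9 against 13.7.

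The program was dominated by few of its genes. LOC591984 alone made up 20.7% of the module's UMIs in gut cells with the gcm MO, 25.4% with the control MO, 22.5% at 72 hpf and 29.2% at 48 hpf. UMIs are counted from transcript ends, so these levels do not depend on gene length. The 5 most abundant members together held 46.6%, 53.4%, 59.2% and 53.1% of the module in the same libraries, and the 50 least abundant held 3.30% to 7.63%. LOC753678, LOC575684, LOC589852 and LOC585065 filled the next places with either MO.

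LOC591984 had a UMI in 262 of the 278 control MO gut cells (94.2%, median 3671.5 UMIs per cell), in 34.1% of pigment cells (median 1996 UMIs) and in 36.5% of all cells outside the gut. Free RNA in droplets can give UMIs in cells that do not express a gene, and its part in these shares was not tested. Its level was 16427 CPM in gut cells, 62.1-fold (59.4 to 65.0) that of other cells. LOC585065 had a UMI in 71.6% of the same gut cells, 15.7% of pigment cells and 11.0% of all cells outside the gut, and LOC589852 in 83.5%, 3.78% and 3.84%.

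In the 3 libraries that the choice did not use, nearly every member that could be read was higher in gut cells than in other cells. With the gcm MO, 91 members had at least 10 UMIs and all 91 were at least 2-fold higher in gut cells, where 17.3% of the 9702 genes read were. At 72 hpf, 81 of the 87 members read were at least 2-fold higher, where 14.2% of 15966 genes were. The other 6 had a ratio under 1, but none of them can be called lower at this depth. At 48 hpf in uninjected embryos, 99 members were read and all 99 were at least 2-fold higher, where 11.7% of 15923 genes were. The other members had under 10 UMIs over both groups. A member that reached 10 UMIs through its gut cells alone had to be higher there, so the counts are given as they stand. Without the gut cells that passed the threshold of another marker, the counts with the gcm MO and at 48 hpf were again 91 and 99, and at 72 hpf there were no such cells to leave out.

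The size of the difference was 38.1-fold (36.2 to 40.1) for the summed module with the gcm MO, at 43514 CPM in gut cells and 1142 CPM in other cells. With the control MO, which set the members, it was 64600 and 1320 CPM. At 72 hpf the sums were 131900 and 942 CPM, 140-fold (136 to 144) higher in gut cells, and at 48 hpf 65935 and 1001 CPM, 65.8-fold (64.6 to 67.1) higher. The median member ratio was 38.1 with the gcm MO, 105 at 72 hpf and 52.9 at 48 hpf. Over all genes read it was 1.06, 0.377 and 0.867 in the same order. Any gene read without a UMI in gut cells has a ratio below 1. At 72 hpf gut cells held 59310 UMIs against 14542847 in other cells, so the 0.377 depends on this depth. The genes read were not matched to the members in level. Gut cells were deeper than other cells at 48 hpf (median 5282 and 3036 UMIs) and close to them with the gcm MO (3866 and 3816.5) and at 72 hpf (1729 and 1487).

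**Figure D1:**
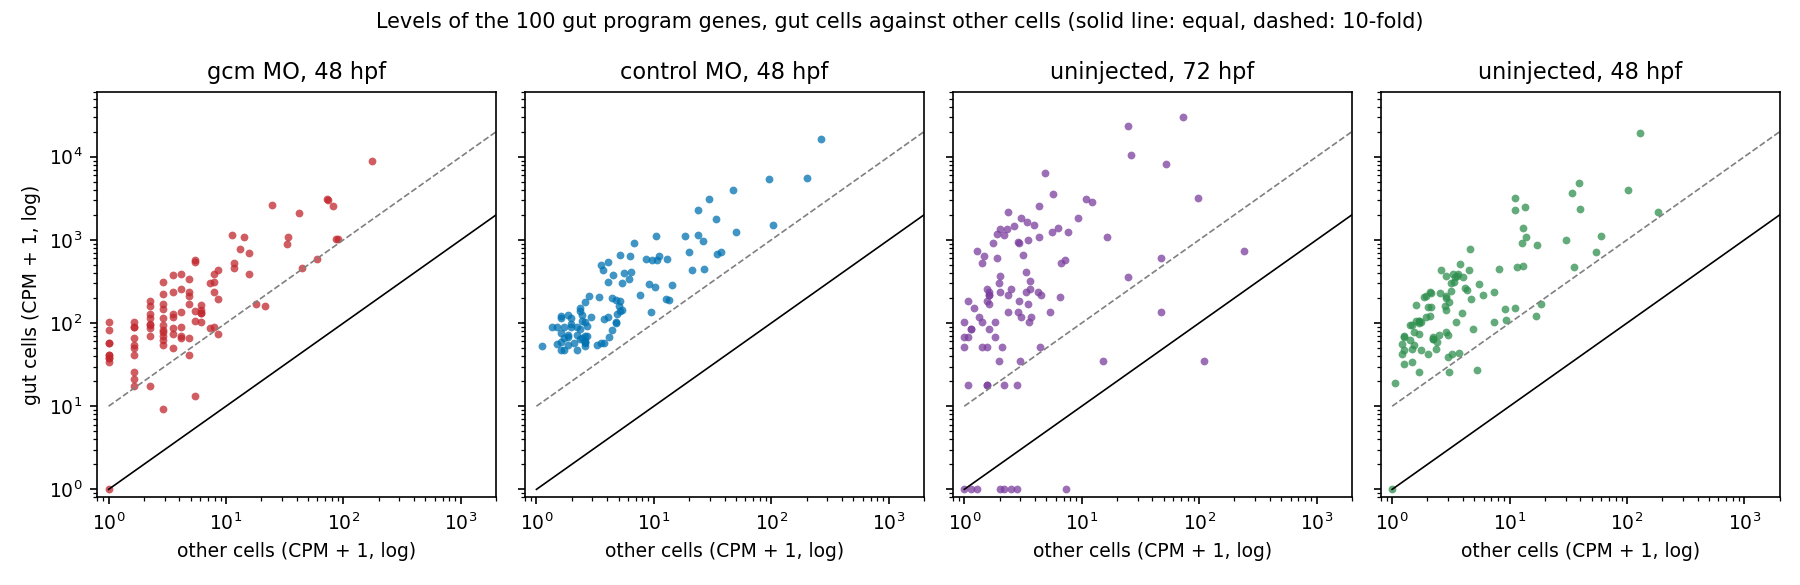
Levels of the 100 members in gut cells (y axis) and in other cells (x axis) as CPM + 1 on log axes, 1 panel per library and 1 point per gene. The control MO panel is the contrast that chose the genes. In the gcm MO and 48 hpf panels most points lie above the dashed 10-fold line, while at 72 hpf 8 points lie at 0 UMIs in gut cells.

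By the ratio of (CPM + 1), the highest members with the gcm MO were LOC577063, with 77 UMIs in gut cells and 3 in other cells (165-fold, 54.3 to 817), LOC589852 (112-fold, 80.3 to 160) and LOC754064 (148-fold from 92 and 4 UMIs). The lowest were LOC578464, with 3 and 7 UMIs, and LOC578821, with 2 and 3 UMIs in gut and other cells, while LOC100892499 had no UMI in either group. At 48 hpf LOC589852 was highest by the same measure, at 3200 CPM in gut cells and 10.2 CPM in other cells (315-fold, 267 to 375), beside LOC587093 (229-fold) and LOC575434 (198-fold). LOC105440589 (6.22-fold from 16 and 63 UMIs) and LOC579087 (7.64-fold from 72 and 231 UMIs) were the lowest read there, and both had also been near the threshold in the control MO library.

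At 72 hpf the highest by the ratio of (CPM + 1) were LOC587093, LOC757247 and LOC585065. LOC587093 had 383 UMIs in gut cells and 56 in other cells (1677-fold, 1264 to 2261), LOC757247 had 127 and 20 (1557-fold, 967 to 2635), and LOC585065 had 1371 and 344 (977-fold, 868 to 1103). All 3 were also higher in gut cells at 48 hpf, at 229-, 110- and 126-fold. By plain CPM, members with fewer UMIs stood higher at 72 hpf, such as LOC583569 (2697-fold from 11 and 1 UMIs) and LOC763590 (2636-fold from 43 and 4 UMIs). Of the 6 members with a ratio under 1, 5 had no UMI in gut cells. The exception, LOC593656, was at 33.7 CPM in gut cells (2 UMIs) and 109 CPM in other cells (1591 UMIs), and its interval reached an equal level (0.308-fold, 0.0373 to 1.11). LOC763627 had 0 UMIs in gut cells and 93 in other cells, and LOC105446895 had 0 and 26. For the 5 with no UMI an equal level would have given 0.0612 to 0.379 UMIs in gut cells, so their ratio at 72 hpf is not readable at this depth.

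Member levels in gut cells were ordered alike in the 48 hpf libraries and less so at 72 hpf. Over the 100 genes, Spearman's rho of gut cell CPM was 0.899 for gcm MO with control MO and 0.828 for control MO with uninjected 48 hpf, and 0.457, 0.452 and 0.600 for 72 hpf with gcm MO, control MO and 48 hpf. These values are across genes, which are not independent replicates, and the 72 hpf values also rest on the fewest UMIs.

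The share of a cell's UMIs that came from the 100 genes was higher in most gut cells than in nearly all other cells, with some overlap. Its median was 4.09% in gut cells and 0.0842% in other cells with the gcm MO, 6.86% and 0.0819% with the control MO, 8.24% and 0.0581% at 72 hpf, and 6.87% and 0.0651% at 48 hpf. Only 2 of 472 other cells with the gcm MO, 3 of 3045 with the control MO, 2 of 6648 at 72 hpf and 4 of 5049 at 48 hpf reached the median share of their library's gut cells. From the other side, 14 of 67 gut cells with the gcm MO, 9 of 278 with the control MO, 1 of 18 at 72 hpf and 12 of 121 at 48 hpf lay below the share that 9 in 10 other cells stayed under.

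Within gut cells the share was not spread around 1 value. The fullest bin of 1% was that from 8% to 9% with the control MO (50 cells) and at 48 hpf (20 cells), with fewer cells from 3% to 4% (9 and 3 cells). With the gcm MO it was that under 1% (19 cells), and the next was that from 6% to 7% (10 cells). A bound of 2% was set after seeing this distribution. Under 2% were 25 of 67 gut cells with the gcm MO (37.3%, 25.8 to 49.99), 39 of 278 with the control MO (14.03%, 10.2 to 18.7), 1 of 18 at 72 hpf (5.56%, 0.141 to 27.3) and 23 of 121 at 48 hpf (19.0%, 12.5 to 27.1). As a ratio of 2 libraries, low-share cells were 2.66 times (1.54 to 4.51) as common among gut cells with the gcm MO as with the control MO. The control MO gut cells also chose the members, which favours high shares there, so this ratio is a description only. The range is continuous near the bound, with 10, 26, 0 and 10 gut cells between 1.5% and 3% in the gcm MO, control MO, 72 hpf and 48 hpf libraries.

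**Figure D2:**
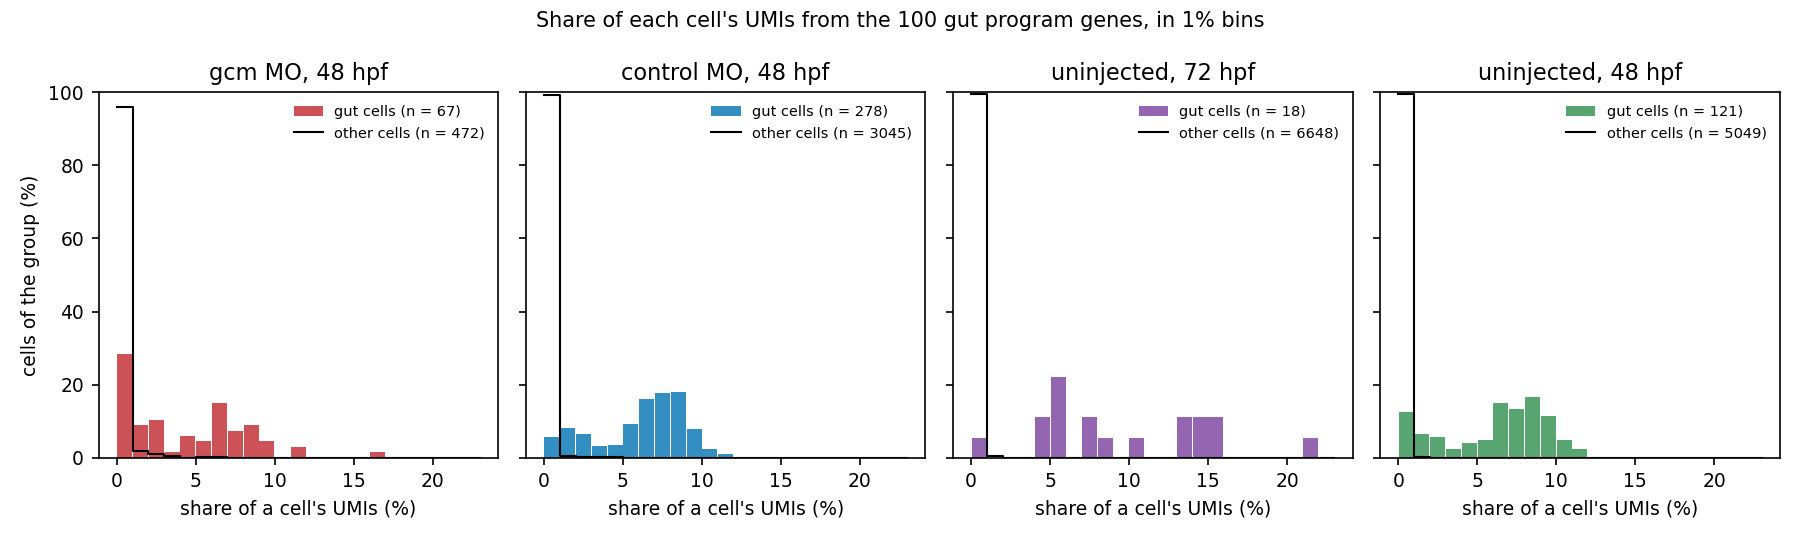
Share of each cell's UMIs from the 100 genes, as the percent of cells in each 1% bin, with gut cells as bars and other cells as the black line, 1 panel per library. Gut cells of the 3 libraries at 48 hpf have 1 group around 6% to 9% and another under 2%, which holds 25 of 67 cells with the gcm MO and 39 of 278 with the control MO, while other cells lie almost wholly in the first bin.

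The low-share gut cells also had less of the endoderm regulators, which are no members. blimp1/krox was at 101 CPM in low-share and 1385 CPM in the other gut cells with the gcm MO, at 83.2 and 882 CPM with the control MO, and at 216 and 1164 CPM at 48 hpf. GATAe was at 304 and 759 CPM, 141 and 605 CPM, and 257 and 712 CPM in the same order. FoxA did not follow them with the control MO (1314 and 968 CPM), and was at 1046 and 2029 CPM with the gcm MO and 741 and 1627 CPM at 48 hpf. Endo16 itself was at 4927 and 10962 CPM, 4749 and 5824 CPM, and 2212 and 5733 CPM, against 16.99 to 39.3 CPM in other cells, which hold under 3 UMIs each by definition.

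The summed levels of ectodermal markers were higher in the low-share gut cells, with much of the ARS sum in single cells. ARS was at 5118 CPM in them and 332 CPM in the other gut cells with the gcm MO, at 2096 and 657 CPM with the control MO, and at 5248 and 1075 CPM at 48 hpf. SPEC1, a calcium-binding protein gene of aboral ectoderm, was 13.1-, 3.23- and 6.56-fold higher in them. Cells with an ARS UMI were 9 of 25 low-share and 22 of 42 other gut cells with the gcm MO, 24 of 39 and 182 of 239 with the control MO, and 22 of 23 and 90 of 98 at 48 hpf. A single low-share cell held 162 of the 455 ARS UMIs with the gcm MO, 89 of 252 with the control MO and 170 of 510 at 48 hpf. NK2.1 had 0 UMIs in low-share cells with the gcm MO, but 20 of the 26 gut cell UMIs with the control MO (in 10 of 39 low-share and 6 of 239 other gut cells) and 37 of 42 at 48 hpf (in 8 of 23 and 5 of 98) fell in them. Of the low-share cells, 19 of 25, 31 of 39 and 15 of 23 passed no threshold for another cell type. Their median depth was 3823, 2923 and 3889 UMIs in the 3 libraries, against 3972.5, 3810 and 5394 UMIs in the other gut cells. Scrublet, a doublet caller, called none of the gut cells with the gcm MO and 5 of the 278 with the control MO as doublets. The part of ectodermal RNA in the low shares was not tested.

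Nearly all members followed the split, also when each member was left out of the share it was read against. Among members with at least 10 UMIs, 85 of 90 were lower in low-share cells with an interval below 1 with the gcm MO, where 13.8% of 3560 genes were. With the control MO 91 of 100 were, where 5.83% of 7201 genes were, and at 48 hpf 84 of 99, where 8.59% of 5122 genes were. The other members still set the split, so these counts are a description. Higher with an interval above 1 were 1, 3 and 2 members in the same libraries, where 15.6%, 11.5% and 16.5% of all genes were, and 1 member recurred. LOC100888349 was at 705 CPM in low-share cells and 184 CPM in the others with the gcm MO (3.83-fold higher, 2.42 to 6.18), at 1174 and 78.9 CPM with the control MO (14.9-fold, 11.2 to 19.9), and at 407 and 41.6 CPM at 48 hpf (9.78-fold, 5.63 to 17.5). It was found in 11 of 26, 25 of 44 and 7 of 24 low-share cells, counted without its own UMIs, so this did not rest on 1 cell.

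Other exceptions held in 1 library each. LOC105446895 was 3.59-fold (2.96 to 4.34) higher in low-share cells with the control MO, but at 212 against 961 CPM with the gcm MO and close to equal at 48 hpf (512 and 456 CPM). LOC575337 was 2.83-fold (2.04 to 3.89) higher in low-share cells at 48 hpf, with 62 UMIs in 4 cells, and lower in them with either MO. LOC575703 was 1.85-fold (1.12 to 2.93) higher with the control MO. These 4 genes are picked here for their exception to the split after their values were seen.

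In the 3 libraries at 48 hpf the program was lowest in the gut cells with the least Endo16. Gut cells were divided by Endo16 UMIs per 1000 UMIs of the cell, at bounds of 2, 5 and 10. With the gcm MO the summed module was at 8180, 45805, 61763 and 52597 CPM from the lowest to the highest bin (10, 15, 17 and 25 cells). With the control MO it was at 43630, 61587, 71641 and 67308 CPM (34, 103, 115 and 26 cells), and at 48 hpf at 39438, 73598, 76779 and 69960 CPM (23, 50, 36 and 12 cells). In these 3 libraries the lowest bin stood below the rest. The highest summed level was in the bin from 5 to 10 per 1000, not in the top one. With the gcm MO the median share per cell was highest in the top bin, at 5.88% against 4.69% from 5 to 10 per 1000. At 72 hpf the bins held 4, 4, 9 and 1 cells with 136854, 141048, 113251 and 87379 CPM, highest from 2 to 5 per 1000. Of the cells in the lowest bin, 9 of 10 were low-share cells with the gcm MO, 12 of 34 with the control MO and 12 of 23 at 48 hpf.

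Cells outside the gut were sorted by their own markers into pigment, skeletogenic and aboral cells, cells with several markers and remaining cells. In the control MO library the module summed to 64600 CPM in gut cells, 4381 CPM (4049 to 4732) in 50 skeletogenic cells, 1252 CPM (1142 to 1370) in 185 pigment cells, 761 CPM (737 to 787) in 1681 aboral cells, 1366 CPM in 25 cells with several markers and 2097 CPM (2044 to 2150) in 1104 remaining cells. Skeletogenic cells were the highest outside the gut in all 4 libraries, at 3787, 4381, 4600 and 4244 CPM with the gcm MO, with the control MO, at 72 hpf and at 48 hpf, although the gcm MO library had 2 such cells. Aboral cells were the lowest, at 590, 761, 679 and 530 CPM, and the pigment value of the gcm MO library (750 CPM, 343 to 1423, 5 cells) was not distinguishable from its aboral one.

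Among the remaining cells, the summed module was higher in those with 1 or 2 UMIs of Endo16, below the gut threshold. With the control MO it was at 1602 CPM in 980 cells with no Endo16 UMI, 4567 CPM in 102 cells with 1 and 12464 CPM in 22 cells with 2. The same steps were 1828, 2555 and 13395 CPM with the gcm MO, 1065, 9482 and 13580 CPM at 72 hpf, and 1816, 3694 and 12861 CPM at 48 hpf. For 0, 1 and 2 UMIs the median share per cell was 0.106%, 0.183% and 0.280% with the control MO. It was 0.152%, 0.149% and 1.32% with the gcm MO, 0.039%, 0.108% and 1.10% at 72 hpf, and 0.144%, 0.176% and 3.57% at 48 hpf. From 0 to 1 UMI the median thus did not rise with the gcm MO. In the 72 hpf library 1 cell held 270 of the 467 module UMIs of cells with 1 Endo16 UMI. At 72 hpf 17 gut cells and 17 cells outside the gut held at least 2% of their UMIs in the module. Of the cells outside, with a median of 1020 UMIs, 9 had no Endo16 UMI.

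**Figure D3:**
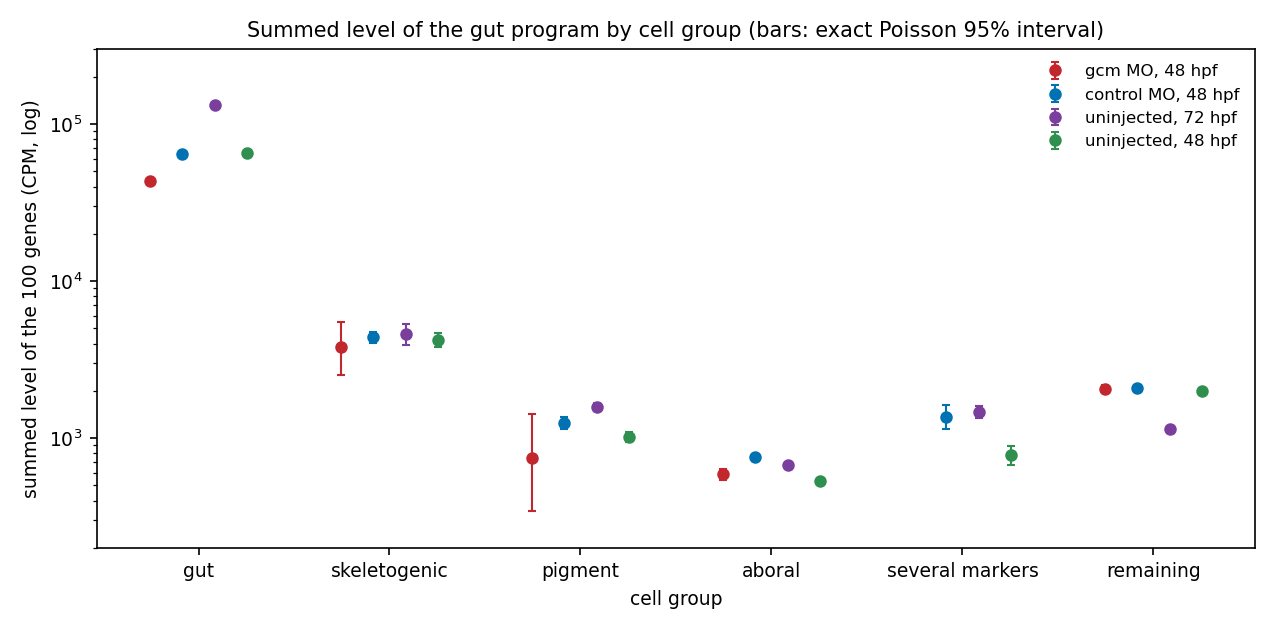
Summed level of the 100 genes in CPM on a log axis by cell group, 1 point per library with its exact Poisson 95% interval. In every library gut cells (43514 to 131900 CPM) stand above all others, and skeletogenic cells (3787 to 4600 CPM) are the next highest.

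The skeletogenic level came mainly from 1 member. LOC753678 made up 477 of the 645 module UMIs of skeletogenic cells with the control MO (3240 CPM, 59.0% of its gut level, in 45 of 50 cells) and 242 of 360 at 48 hpf (2853 CPM). At 72 hpf it held 38 of 171, and 67 were of LOC593656 in 2 of 13 cells. Compared with remaining cells of the control MO library, 8 of the 57 members read were at least 2-fold higher in skeletogenic cells and 42 were at least 2-fold lower, where 17.2% of all genes read were higher. LOC578352 was at 436 CPM in gut cells and 462 CPM in skeletogenic cells (68 UMIs in 31 of 50 cells), 106% of the gut level. In 72 hpf larvae it was at 3086 CPM in gut and 1157 CPM in skeletogenic cells, and in 48 hpf gastrulae at 1081 and 719 CPM. LOC580999 was at 67.1 CPM in gut and 54.3 CPM in skeletogenic cells with the control MO, and at 260 and 212 CPM at 48 hpf. LOC100888046 was at 51.2 CPM in gut cells and 47.5 CPM (7 UMIs) in skeletogenic cells with the control MO. LOC578352 and LOC580999 were called at least 2-fold higher in skeletogenic than in remaining cells in the control MO, 72 hpf and 48 hpf libraries, and so was LOC753678.

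In pigment cells 4 of the 57 members read were at least 2-fold higher than in remaining cells with the control MO, where 14.7% of all genes were, and 39 were at least 2-fold lower. LOC755959 was at 723 CPM in gut cells and 183 CPM in pigment cells (53 of 185 cells) with the control MO, and at 487 and 108 CPM at 48 hpf. LOC585204 was at 338 CPM in gut and 50.3 CPM in pigment cells with the control MO, and at 444 and 77.1 CPM at 48 hpf. At 72 hpf its order was the other way round, with 135 CPM in gut cells (8 UMIs) and 554 CPM in pigment cells (386 UMIs in 215 of 523 cells). LOC581884 was at 128 CPM in gut and 18.5 CPM (7 UMIs) in pigment cells with the control MO. In aboral cells none of 76 members read was at least 2-fold higher than in remaining cells, where 7.93% of all genes were.

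The aboral levels highest relative to gut cells with the control MO were 6.79% of the gut level for LOC100889865, 5.08% for LOC100887984 and 4.45% for LOC763627. LOC100889865 came closer to its gut level at 72 hpf. It was at 725 CPM in gut cells and 390 CPM in aboral cells (2945 UMIs in 1315 of 2532 cells) at 72 hpf, against 149 and 12.1 CPM at 48 hpf. LOC593656, at 33.7 CPM in gut cells at 72 hpf, was at 200 CPM (1180 UMIs in 135 of 3506 cells) in remaining cells, with up to 151 UMIs in 1 cell.

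Between the MO libraries, the summed program was lower in gut cells with the gcm MO. Its sum was 43514 CPM with the gcm MO and 64600 CPM with the control MO, a ratio of 0.674 (0.660 to 0.688), and the median member ratio was 0.748 beside 1.14 over all 8149 genes read. Of the 100 members 18 were at least 2-fold lower, where 10.7% of all genes read were, and 1 was at least 2-fold higher, where 16.9% were. The control MO gut cells of this comparison are those that chose the members, and a gene taken for a high level there can be lower elsewhere by that choice alone. The upper limit on genes per cell left out 48 of 643 deposited cells with the gcm MO and 10 of 3402 with the control MO. Without that limit the median member ratio was nearer to equality, as given under the dependence on processing. The study reports that cells of gcm morphants lysed more readily on dissociation, and the part of this in the lower sum was not tested. All differences between the MO libraries given here describe this pair of libraries only.

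The sums were also taken without low-share cells. Among gut cells with at least 2% of their UMIs in the module, 42 with the gcm MO and 239 with the control MO, the sums were 65458 and 71461 CPM (ratio 0.916, 0.897 to 0.935) and the median member ratio was 1.04. The bound is set on the same share that is summed and leaves out more of the gcm MO cells, so the closer sums follow from it and are no result. There 8 members were at least 2-fold lower, where 13.4% of all genes were, and 7 at least 2-fold higher, where 13.1% were. The count of lower members was also smaller without an upper limit on genes per cell, at 11 (88 and 285 gut cells), at 12 without gut cells that passed another marker (60 gcm MO cells), and at 10 with gut cells taken by GATAe and blimp1/krox (33 and 197 cells). Endo16, GATAe, blimp1/krox and FoxA were not lower with the gcm MO. They were at 8778 against 5704, 594 against 553, 920 against 793 and 1673 against 1007 CPM. Endo16 chose the gut cells, so its level among them depends on that threshold and is a description only.

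**Figure D4:**
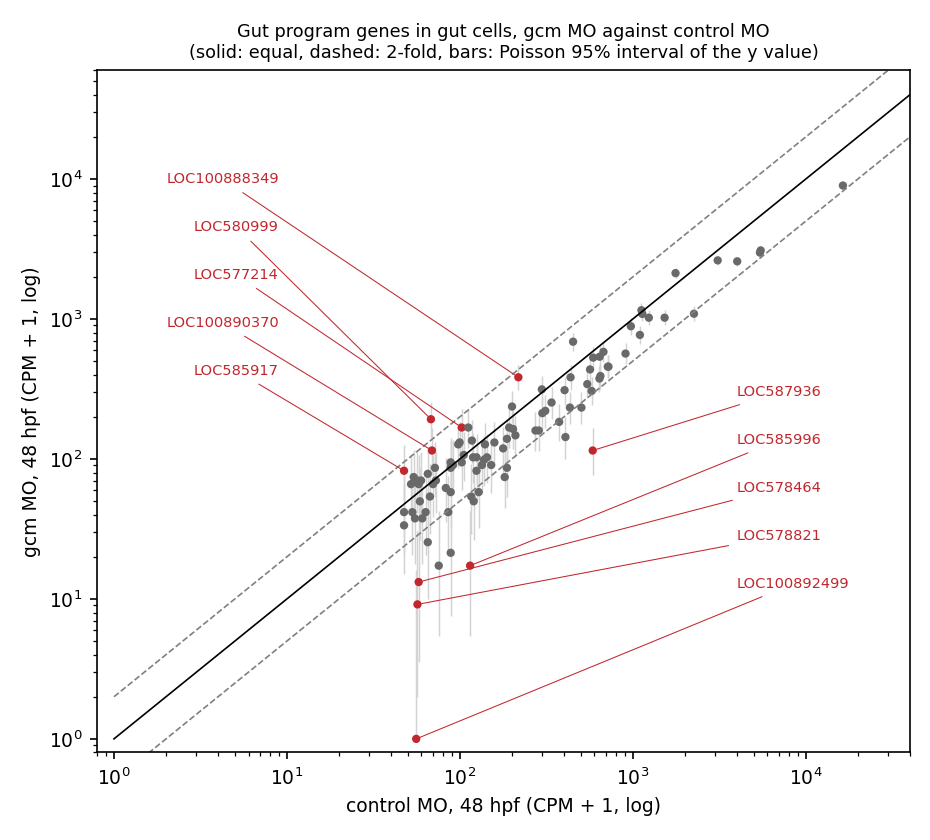
Levels of the 100 members in gut cells with the gcm MO (y axis) and with the control MO (x axis) as CPM + 1 on log axes, with the Poisson 95% interval of the gcm MO value. Named are the 5 highest and 5 lowest ratios of members with at least 30 UMIs, and most points lie between the line of equality and the lower 2-fold line.

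All 8 members that stayed at least 2-fold lower in cells above 2% were among the 18. LOC587936 had 28 UMIs in 12 of 67 gut cells with the gcm MO (114 CPM) and 629 UMIs in 167 of 278 with the control MO (586 CPM), a ratio of 0.194 (0.128 to 0.284). In the uninjected libraries it stood at 236 CPM in larvae (72 hpf) and 356 CPM in gastrulae (48 hpf), so that the gcm MO value was the lowest of the 4. LOC585996 was at 16.3 CPM (4 UMIs) with the gcm MO and 114 CPM (122 UMIs) with the control MO, a ratio of 0.143 (0.0384 to 0.376). LOC592620 was at 143 and 407 CPM (0.350, 0.241 to 0.494), but at 71.3 CPM at 48 hpf, so that here the control MO library was the high one of the gastrula libraries.

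LOC100892499 had 0 UMIs in gut cells with the gcm MO and 59 UMIs in 29 gut cells with the control MO, at least 4.50-fold lower at the limit of 3 counts. It also had 0 UMIs in gut cells at 48 hpf and 5 at 72 hpf. LOC578821 (2 and 60 UMIs) and LOC578464 (3 and 61 UMIs) were the other low ones. LOC580999 was the only member at least 2-fold higher, at 191 CPM with the gcm MO and 67.1 CPM with the control MO (2.85-fold, 1.93 to 4.18), and it was at 260 CPM at 48 hpf. LOC100888349, the gene of the low-share cells, was at 383 and 217 CPM (1.76-fold, 1.37 to 2.25). LOC577214, LOC100890370 and LOC585917 were at 1.64- to 1.75-fold.

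Between stages, many members differed in level in gut cells. The sum was 131900 CPM in the 72 hpf library and 65935 CPM in the 48 hpf one, 2.00-fold (1.95 to 2.05) higher, and the median member ratio was 1.27 beside 0.708 over all 5396 genes read. Of 99 members read, 37 were at least 2-fold higher at 72 hpf, where 12.9% of all genes were. Another 22 were at least 2-fold lower, where 38.2% of all genes were. A gene read here with no UMI among the 59310 gut cell UMIs at 72 hpf counts as lower. The values over all genes thus depend on this depth, and these genes were not matched to the members in level. Of the 37, 36 had an interval above 1, and of the 22, 13 had an interval below 1 and 8 had no UMI in the 18 gut cells. GATAe was at 337 and 638 CPM, blimp1/krox at 539 and 1011 CPM and FoxA at 658 and 1484 CPM, all lower at 72 hpf. Endo16 was at 3389 and 5166 CPM, but it chose the gut cells, so its level among them depends on that threshold.

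**Figure D5:**
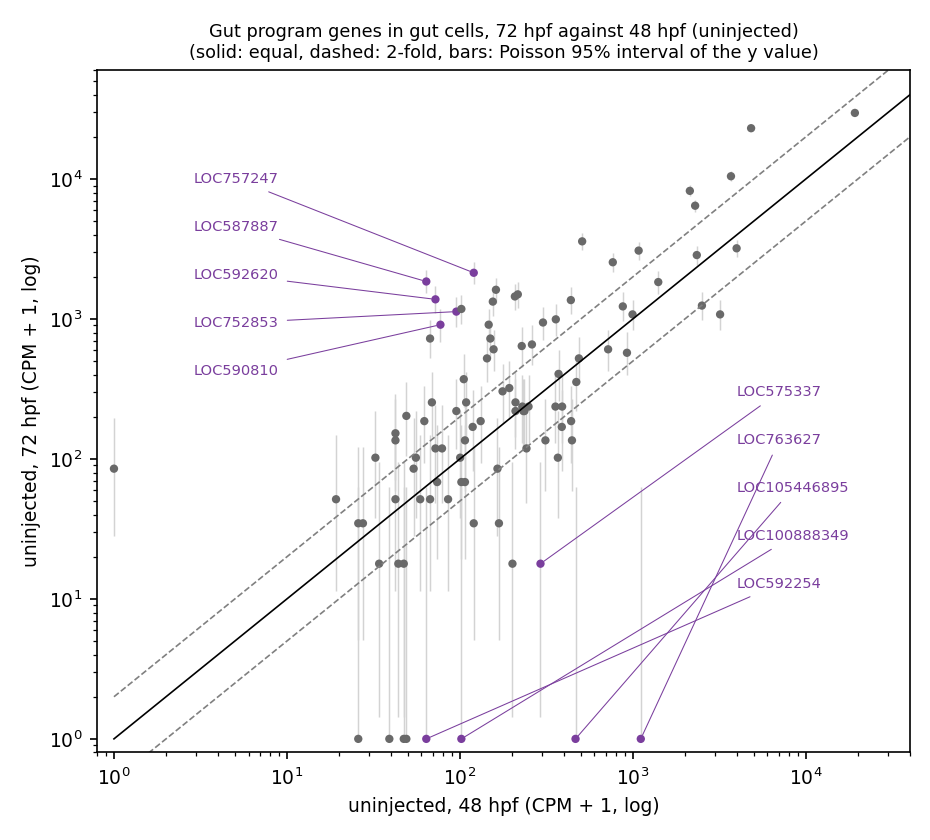
Levels of the 100 members in gut cells at 72 hpf (y axis, 18 cells) and at 48 hpf (x axis, 121 cells) of uninjected embryos as CPM + 1 on log axes, with the Poisson 95% interval of the 72 hpf value. Points spread to both sides of the 2-fold lines, with 37 members above the upper line and 22 below the lower one, 8 of these at 0 UMIs.

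The 5 most abundant members at 72 hpf were higher than at 48 hpf, a direction that their choice by the 72 hpf level favours. LOC585065 was at 23116 CPM in 72 hpf gut cells and 4836 CPM in 48 hpf gut cells (4.78-fold, 4.48 to 5.10), LOC577275 at 8245 and 2139 CPM (3.85-fold), LOC575553 at 10487 and 3699 CPM (2.84-fold) and LOC587093 at 6458 and 2295 CPM (2.81-fold). LOC591984 was at 29725 and 19263 CPM (1.54-fold, 1.47 to 1.62). Without these 5 the sum was still 1.60-fold (1.54 to 1.66) higher at 72 hpf, below the 2.00-fold of the whole set. Of the 5 most abundant members at 48 hpf, LOC753678 and LOC589852 were lower at 72 hpf, and a choice by the 48 hpf level favours that direction. LOC753678 was at 3204 and 3987 CPM (0.803-fold, 0.690 to 0.932) and LOC589852 at 1079 and 3200 CPM (0.337-fold, 0.259 to 0.433).

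The highest ratios belonged to members of low level at 48 hpf. LOC587887 had 110 UMIs in 10 of 18 gut cells at 72 hpf (1855 CPM) and 38 UMIs in 16 of 121 at 48 hpf (63.0 CPM), 29.4-fold (20.2 to 43.8) higher. LOC592620 was 19.4-fold (13.2 to 28.7) higher, with 82 UMIs in 8 cells and 43 UMIs in 20 cells. LOC757247 was 17.9-fold (13.3 to 24.3) higher, and LOC752853 and LOC590810 were 11.95- and 11.94-fold higher. These 5 were found in 7 to 11 of the 18 cells. Without the deepest 72 hpf gut cell, 38 members were at least 2-fold higher and 22 at least 2-fold lower.

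The lowest ratios were those of LOC763627 and LOC105446895. LOC763627 had 0 UMIs at 72 hpf and 671 UMIs in 69 of 121 gut cells at 48 hpf (1112 CPM), at least 22.0-fold lower at the limit of 3 counts. In aboral cells it was at 10.1 CPM in the later library, against 63.2 CPM in the earlier one. LOC105446895 had 0 and 281 UMIs (at least 9.21-fold lower), and LOC575337 had 1 and 176 UMIs (0.0578, 0.00145 to 0.326). For LOC100888349 (0 and 61 UMIs) the limit allows a ratio of up to 0.500, and for LOC592254 (0 and 38 UMIs) up to 0.803.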

How the data were processed

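The 4 libraries were made with 10x Chromium 3′ chemistry. Per the labels and methods, the authors ran Cell Ranger against Spur_4.2 and deposited raw UMI counts of each called cell, not normalized. Here cells with 400 to 2500 genes were kept, UMIs were summed per library and cell group, and levels were scaled to CPM by the UMI total of each group. Ratios of single genes are of plain CPM. Calls and medians use (CPM + 1), a fold of 2 and at least 10 UMIs over both groups. A count of 0 was given a limit of 3 counts. Pigment, skeletogenic and vasa-rich cells had at least 5 UMIs of their markers, aboral cells at least 10 of ARS. Statistics used scipy 1.17.1 under Python 3.11.15, with scanpy 1.11.5 for Scrublet.

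The members, lists and markers were chosen with earlier results of these data known. The genes named are the 15 highest by the rule, the 5 on each side of the threshold, the 3 highest and 3 lowest per library, the 5 highest and 5 lowest per contrast with at least 30 UMIs, the 3 highest per other cell group, and the gut regulators listed by symbol. Lists by words in gene descriptions could not be read, since the identifiers carry none. Scrublet at an expected rate of 5% called 2.23% of cells with the gcm MO, 1.08% with the control MO, 0 at 72 hpf and 2 cells at 48 hpf, so it did not work in the uninjected libraries, and no cell was removed in the reported values. Intervals and ranking were checked on simulated Poisson counts of 14123 genes with 200 changed. Of the intervals of these 200 genes, 95.0% held the true ratio. The simulated counts follow the model that the intervals assume and hold no spread between cells, so this checks the calculation only. Cells are not replicates, and no p-value is given. Alternatives were other gut thresholds, cell filters, thinning to 1000 UMIs, scalings, constants, minimums and module sizes. Added after seeing the data were gut cells with at least 2% of their UMIs in the module, and leaving out the deepest 72 hpf gut cell.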

Additional observations from a re-analysis of the deposited data

Results flagged for a closer look

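LOC593656 had ratios on opposite sides of 1 at the 2 stages, although the 72 hpf interval reaches above 1. At 72 hpf its CPM in gut cells was 0.308 times (0.0373 to 1.11) that of other cells, from 2 and 1591 UMIs, while at 48 hpf it was 9.59 times (7.54 to 12.1) that of other cells, from 101 and 258 UMIs. At an equal level 6.49 UMIs would have been found in the 72 hpf gut cells. With 1 library per stage the difference was not tested.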

How the results depend on the processing

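Only 1 library stands behind each condition, so differences between conditions could not be set against the spread between embryos, and 18 gut cells limit every 72 hpf value. No paired analysis was possible because each condition has 1 library and no replicate could be left out. Of the values recomputed, 197 stayed within the interval of the main value or within 1.5 times the count, 104 moved further and 3 changed direction. That interval covers counting error for sums and the spread between members for medians. The causes were not tested unless the setting itself gives one. Gut cells with at least 2% of UMIs in the module, and leaving out the deepest 72 hpf gut cell, were added after seeing the data.

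For gut over other cells, values are in the order gcm MO, 72 hpf, 48 hpf. The summed ratio (38.1, 140 and 65.8) was 122 at 72 hpf and 59.6 at 48 hpf with at least 2 Endo16 UMIs, 36.0, 145 and 63.9 with at least 5, and 28.8, 120 and 60.2 with gut cells by GATAe and blimp1/krox. It was 46.6, 147 and 57.9 without an upper limit on genes, 42.1 (gcm MO) and 56.2 (48 hpf) over all deposited cells, and 43.6 and 70.8 without gut cells that passed another marker. It was 44.8, 119 and 48.8 after thinning to 1000 UMIs, 19.4, 92.4 and 46.5 as a mean over cells, 40.2, 162 and 70.8 with CPM outside the module, and 35.9, 371 and 75.9 divided by the median of all genes. With 50 members it was 53.3, 359 and 133, with 200 members 12.4, 31.0 and 16.8, and with members of at least 100 UMIs 19.7, 52.6 and 27.3.

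The median member ratio (38.1, 105 and 52.9) was 29.5 with the gcm MO by GATAe and blimp1/krox, 56.6 and 184 after thinning with the gcm MO and at 72 hpf, and 19.3 and 37.2 as a mean over cells with the gcm MO and at 48 hpf. It was 278 at 72 hpf and 61.0 at 48 hpf divided by the median of all genes. With 0.1 added to CPM it was 47.4, 186 and 84.0, and with 10 added 10.4, 22.3 and 11.7. With at least 30 UMIs it was 164 at 72 hpf. With 50 members it was 50.7 with the gcm MO and 75.02 at 48 hpf, with 200 members 11.4, 10.9 and 13.1, and with members of at least 100 UMIs 24.6, 38.2 and 30.6. The count of members at least 2-fold higher (91, 81 and 99) was 49 and 51 after thinning with the gcm MO and at 72 hpf, 59 with the gcm MO at a minimum of 30 UMIs, 47, 42 and 50 of 50 members, and 181, 149 and 196 of 200.

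For gcm MO over control MO, the 1 member at least 2-fold higher became 2 with at least 5 Endo16 UMIs, 6 by GATAe and blimp1/krox, 16 after thinning, 8 as a mean over cells, 3 of 200 members, 7 in gut cells of at least 2%, and 0 at 4-fold, of 50 members and of members with at least 100 UMIs. The 18 lower members became 10 by GATAe and blimp1/krox, 11 without an upper limit on genes, 11 over all deposited cells, 7 at 4-fold, 10 of 50, 35 of 200 and 8 in gut cells of at least 2%. The median ratio of 0.748 was 0.948 by GATAe and blimp1/krox, 0.900 without an upper limit, 0.910 over all deposited cells, 0.988 after thinning and 0.655 divided by the median of all genes, and it changed direction to 1.04 in gut cells of at least 2%.

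For 72 over 48 hpf, the 37 higher members became 16 at 4-fold and 17 of 50, and the 22 lower became 12 after thinning, 11 at 4-fold, 11 of 50 and 54 of 200. The median ratio of 1.27 was 1.79 divided by the median of all genes, and changed direction to 0.949 with 200 members and 0.882 with members of at least 100 UMIs. In the control MO library the module was at 61157 CPM in gut cells, 809 CPM in aboral and 2310 CPM in remaining cells as a mean over cells, and at 5022 CPM in skeletogenic, 808 CPM in aboral, 571 CPM in several-marker and 3592 CPM in remaining cells after thinning. With marker thresholds of 3 UMIs and of 5 for ARS, aboral cells were at 854 CPM and remaining cells at 2292 CPM.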
